A study of Mus musculus with 8 samples.

Results

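A set of 48 mouse genes that carry out mitosis and cytokinesis was followed through the 4 treatments of one macrophage culture experiment. The set was a fixed list of symbols, chosen with earlier results of these data known. A member was tested where a probe was above background (detection p under 0.05) on at least 2 of the 8 arrays. That left 34 members among 12793 genes and unnamed probes tested. The probe table named no probe for Mki67 and Ccnb1. Another 12 members did not reach the limit: Ccna2, Ccnb2, Bub1, Kif20a, Tpx2, Racgap1, Ube2c, Cenpe, Cenpf, Nuf2, Ect2 and Ttk. Tpx2 and Nuf2 were above background on 1 array and the other 10 on none.

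The cells were bone marrow derived macrophages of C57BL/6 mice, grown for 7 days with M-CSF, the growth factor that drives macrophage growth and survival. They received 1 µM ATRA together with OMsup, ATRA alone or OMsup alone for 24 h in a serum-free macrophage medium, or were left untreated. ATRA is all-trans retinoic acid, the active form of vitamin A and the ligand of nuclear receptors, and OMsup is medium conditioned by cultured omentum, a fatty tissue of the abdominal cavity. The groups were ATRA+OMsup, ATRA, OMsup and untreated, with 2 Illumina bead arrays in each. The labels do not state the medium of the untreated cells, so OMsup, ATRA and the change of medium cannot be told apart in comparisons with untreated cells. They also do not say whether the arrays of a group came from separate cultures or animals, so the p-values reflect the spread between these particular samples and no more, and that spread may be technical.

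Mitosis begins when the kinase Cdk1, bound to cyclins A and B, phosphorylates its targets. Chromosomes are compacted by condensin and topoisomerase, held at the centromere by cohesin, and attached to spindle microtubules through kinetochores. The spindle checkpoint restrains the anaphase-promoting complex until attachment is complete, and midzone proteins and the contractile ring then divide the cell. The messages of most of these genes accumulate in G2 and mitosis, so that in a mixed culture their level follows the share of cells in those phases. Macrophages in M-CSF divide in culture, unlike most macrophages of adult tissue.

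The promoters of this gene class are known for a cell cycle homology element, TTTGAA or TTTAAA, which is bound by MuvB complexes, often near a CCAAT box, which is bound by NF-Y. Promoter windows of 300 bases, from 250 before the start to 50 after it, were taken from RefSeq on GRCm38.p6 for 27 of the 34 tested members. TTTGAA on either strand was present in 22 of the 27 (81.5%), against 20.2% of 27025 genes with such a window. TTTAAA was present in 6 (22.2%, against 14.9%) and CCAAT in 19 (70.4%, against 41.1%). Either element lay between 60 bases before and 50 after the start in 20 members (74.1%, against 10.5%). A match is a description of the letters, not evidence of a site in use.

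The promoters shown are those of the 3 members with the largest summed differences, among those with a window, that were higher with ATRA and lower with OMsup (Prc1, Anln and Top2a). Those of Kif22 and Kif23 follow, chosen after their values were seen: Kif22 for its level in ATRA+OMsup cells and Kif23 for its fall with OMsup. Capitals mark CCAAT, which reads ATTGG where it lies on the other strand. They also mark TTTGAA, which then reads TTCAAA. These 5 windows hold no TTTAAA. The positions are chr7:80294201-80294500 on the plus strand for Prc1 and chr9:22389157-22389456, chr11:99024140-99024439, chr7:127042371-127042670 and chr9:61946750-61947049 on the minus strand for the others.
Prc1: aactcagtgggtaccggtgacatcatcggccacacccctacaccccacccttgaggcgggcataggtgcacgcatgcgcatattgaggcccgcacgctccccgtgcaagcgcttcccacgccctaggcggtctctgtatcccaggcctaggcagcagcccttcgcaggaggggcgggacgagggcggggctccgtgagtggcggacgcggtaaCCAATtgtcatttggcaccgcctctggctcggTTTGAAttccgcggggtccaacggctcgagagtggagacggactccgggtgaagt
Anln: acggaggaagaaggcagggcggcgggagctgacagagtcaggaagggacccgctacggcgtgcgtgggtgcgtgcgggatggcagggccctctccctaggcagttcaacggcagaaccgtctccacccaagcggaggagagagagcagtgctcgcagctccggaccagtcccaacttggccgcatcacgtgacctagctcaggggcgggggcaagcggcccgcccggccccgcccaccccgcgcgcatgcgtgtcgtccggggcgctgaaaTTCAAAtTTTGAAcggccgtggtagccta
Top2a: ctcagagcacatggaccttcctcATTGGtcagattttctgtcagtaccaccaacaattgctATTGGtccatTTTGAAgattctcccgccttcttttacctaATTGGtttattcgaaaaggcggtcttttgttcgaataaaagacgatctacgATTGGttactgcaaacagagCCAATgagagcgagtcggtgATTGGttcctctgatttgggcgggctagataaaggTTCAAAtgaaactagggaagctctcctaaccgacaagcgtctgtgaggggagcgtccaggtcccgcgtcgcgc
Kif22: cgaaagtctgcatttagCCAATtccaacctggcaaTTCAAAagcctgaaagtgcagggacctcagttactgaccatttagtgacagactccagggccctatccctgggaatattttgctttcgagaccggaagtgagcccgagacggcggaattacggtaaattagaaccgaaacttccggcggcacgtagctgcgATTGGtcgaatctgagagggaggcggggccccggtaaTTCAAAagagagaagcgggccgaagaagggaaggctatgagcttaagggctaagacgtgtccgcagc
Kif23: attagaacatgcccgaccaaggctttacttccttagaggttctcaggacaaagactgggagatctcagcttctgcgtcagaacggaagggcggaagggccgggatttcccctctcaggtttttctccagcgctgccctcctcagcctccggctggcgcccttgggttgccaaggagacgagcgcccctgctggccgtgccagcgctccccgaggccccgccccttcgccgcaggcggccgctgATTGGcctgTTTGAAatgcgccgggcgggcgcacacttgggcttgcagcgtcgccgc
All 5 windows hold a TTTGAA near the start. Counted from the start, the nearest TTTGAA begins at -5 in Prc1, 22 in Anln on the reverse strand, -23 in Top2a on the reverse strand, -17 in Kif22 on the reverse strand and 3 in Kif23. Top2a has 6 CCAAT matches and Anln has none.

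All levels below are normalized log2 intensities of 1 probe a gene, and all differences are log2 differences with the standard error (SE) of a limma fit to all 8 arrays. "Rose" and "fell" mean an adjusted p under 0.05 over all 12793 genes and probes. Between 16116 and 16784 probes an array were above background, and the 2 arrays of a group correlated at 0.993 to 0.995 over the tested genes and probes. Of the 34 members, 25 were above background on every array. The other 9 were Kif11, Kif4, Spc25, Ndc80, Sgo2a, Stmn1, Smc2, Smc4 and Pbk, and for these a difference can be a lower bound. Over the 8 arrays, 29 members correlated above 0.8 with the mean of the other members, and the median pairwise correlation was 0.868. These values describe arrays that share treatments, and the label of the set was not tested by them.

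Mitotic genes were highest in cells given ATRA alone and low in both groups that received OMsup. The mean over the 34 members was 5.71 and 5.88 on the ATRA+OMsup arrays, 7.06 and 7.28 on the ATRA arrays, 5.66 and 5.77 on the OMsup arrays, and 6.41 and 6.47 on the untreated arrays. In 32 members the ATRA group had the highest mean, and in 30 both groups with OMsup had means below untreated cells. The order of those last 2 groups varied: 15 members ran ATRA, untreated, ATRA+OMsup, OMsup from high to low, and 15 ran ATRA, untreated, OMsup, ATRA+OMsup. In 22 members all 4 arrays with OMsup lay below both untreated arrays, which held for 16.3% of all genes and probes tested. Since these are bulk samples, fewer dividing cells and less of each message per cell cannot be told apart.

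**Figure D1:**
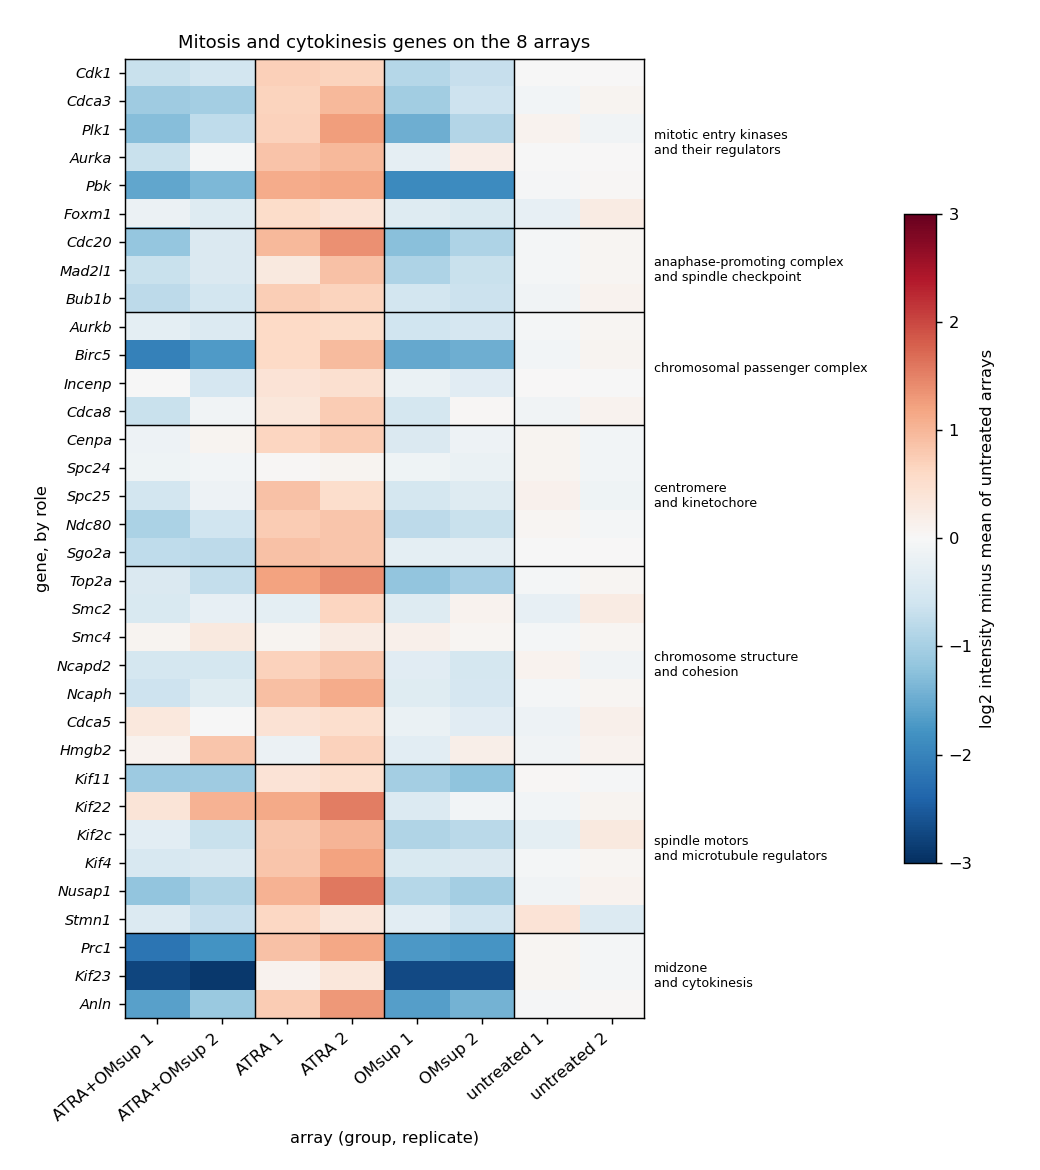
Normalized log2 intensity of the 34 tested members (rows, grouped by role) on the 8 arrays (columns), minus the mean of the untreated arrays. The ATRA columns are red for nearly all members, and the ATRA+OMsup and OMsup columns are blue for most, deepest for Prc1, Kif23, Pbk and Birc5.

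With ATRA alone, 18 of 34 members rose and none fell, a share of 52.9%, where 2.35% of all genes and probes rose. At an unadjusted p under 0.05 there were 28 higher, where 7.36% of all tested were higher, and none lower. All 34 differences from untreated cells were above 0, against 51.3% of all tested, with a median of 0.73 against 0.01 over everything tested. Both ATRA arrays lay above both untreated arrays in 30 members (88.2%), against 23.7% of all tested. Kif22, a motor that moves chromosome arms, rose most (1.33, SE 0.238, adjusted p = 0.00939), followed by the microtubule-bundling Nusap1 (1.31, SE 0.209, adjusted p = 0.00507) and the topoisomerase gene Top2a (1.30, SE 0.177, adjusted p = 0.00198). The count rested on each array compared: 2 and 6 members rose without the first and the second untreated array, and 8 and 2 without the first and the second ATRA array. Top2a and Pbk rose under each of the 17 alternatives run.

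With OMsup alone, 15 of 34 members fell and none rose, a share of 44.1%, where 4.67% of all genes and probes fell. At an unadjusted p under 0.05 there were 21 lower, where 10.3% of all tested were lower, and none higher. Differences were below 0 in 33 members, against 50.5% of all tested, with a median of -0.50, and in 27 both OMsup arrays lay below both untreated arrays (79.4%, against 24.7% of all tested). The cytokinesis genes Kif23, Prc1 and Anln fell, with differences of -2.71, -1.75 and -1.54. Pbk, which encodes a mitotic kinase, was not above background with OMsup and was at least 3.56-fold lower than in untreated cells (adjusted p = 3.08e-05). The count was 8 and 7 without the first and the second untreated array and 8 without the first OMsup array. Top2a, Birc5, Prc1, Kif11, Kif23, Anln and Pbk fell under each of the 17 alternatives.

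With both agents, 14 of 34 members fell relative to untreated cells and none rose, a share of 41.2%, where 7.26% of all tested fell. At an unadjusted p under 0.05, 21 members were lower (61.8%) and 1 was higher, Kif22, where 13.4% of all tested were lower and 13.7% higher. The median difference was -0.54, and 24 members had both ATRA+OMsup arrays below both untreated arrays (70.6%, against 26.7%). Kif23, Prc1, Birc5, Pbk and Anln had the largest falls, at -2.83, -1.99, -1.86, -1.45 and -1.36. The fall of Ncapd2 (-0.53, adjusted p = 0.0478) was kept in 4 of 17 alternatives. The comparison shares its untreated arrays with those of the single agents.

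Adding OMsup to ATRA gave the widest contrast. Relative to ATRA alone, 28 of 34 members fell, a share of 82.4%, where 5.42% of all tested fell. The median difference was -1.33, and 31 members had both ATRA+OMsup arrays below both ATRA arrays, against 24.7% of all tested. The largest falls were in Kif23 (-3.05), Prc1 (-3.01), Birc5 (-2.63), Pbk (-2.59) and Anln (-2.39). In all, 22 of the 28 calls were kept under each of the 17 alternatives, and the count stayed between 22 and 28 with any 1 array left out. The 6 members that did not pass were Cdca5, Kif22, Spc24, Hmgb2, Smc2 and Smc4.

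**Figure D2:**
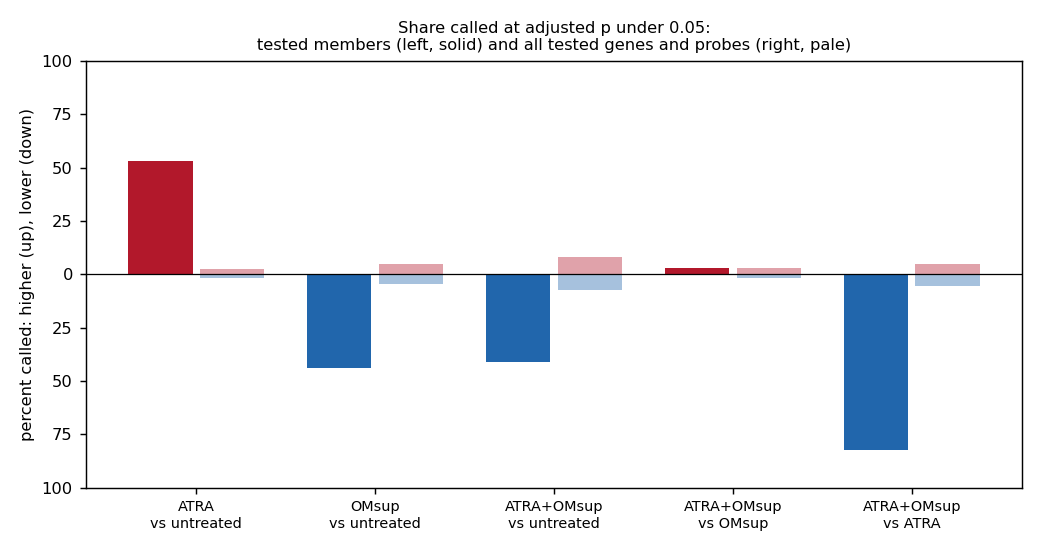
Share of the 34 tested members (solid bars, left) and of all 12793 genes and probes (pale bars, right) that passed an adjusted p under 0.05 in 5 comparisons, with higher calls drawn upward and lower calls downward, in percent. Members stand at 52.9% higher with ATRA, 44.1% lower with OMsup, 41.2% lower with both, 2.94% higher for ATRA added to OMsup and 82.4% lower for ATRA+OMsup against ATRA.

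Genes that start mitosis followed the general pattern, with different weight. Of 6 tested genes in this role, 3 rose with ATRA (Cdk1, Cdca3 and Pbk), 4 fell with OMsup (Cdk1, Cdca3, Pbk and Plk1), and all 6 fell in ATRA+OMsup cells relative to ATRA. Cdk1 read 6.19 and 6.30 in ATRA+OMsup cells, 7.57 and 7.51 in ATRA cells, 6.00 and 6.16 in OMsup cells, and 6.84 and 6.86 in untreated cells. Its 4 groups did not overlap. The gene rose by 0.69 with ATRA (SE 0.159, adjusted p = 0.0365) and fell by 0.77 with OMsup (adjusted p = 0.0111).

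Pbk had the steepest profile of the kinases. Its level was 4.90 and 5.09 in ATRA+OMsup cells, 7.55 and 7.61 in ATRA cells, 4.54 and 4.55 in OMsup cells, and 6.41 and 6.48 in untreated cells. No groups overlapped, and the OMsup arrays were not above background. Pbk rose by 1.14 with ATRA (SE 0.161, adjusted p = 0.00236). In ATRA+OMsup cells it was 2.74-fold lower than in untreated cells (adjusted p = 0.000113).

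Plk1, the kinase of centrosome maturation and mitotic exit, read 5.36 and 5.88 in ATRA+OMsup cells, 7.33 and 7.88 in ATRA cells, 5.16 and 5.75 in OMsup cells, and 6.74 and 6.52 in untreated cells. Both ATRA arrays were above both untreated arrays, but they lay apart and the difference of 0.97 did not pass (SE 0.263, adjusted p = 0.0765). Plk1 fell by 1.17 with OMsup (adjusted p = 0.0168) and by 1.01 with both agents relative to untreated cells (adjusted p = 0.0245).

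Aurka, a kinase of the spindle poles, showed little difference with OMsup. It read 5.04 and 5.66 in ATRA+OMsup cells, 6.58 and 6.68 in ATRA cells, 5.44 and 5.90 in OMsup cells, and 5.70 and 5.73 in untreated cells. The OMsup arrays lay on either side of the untreated ones, with a difference of -0.04 (95% interval -0.55 to 0.46). With ATRA the difference of 0.92 had an adjusted p of 0.0526, just past the limit, and under 9 of the 17 alternatives it passed. Foxm1, a transcription factor that drives G2 and mitosis genes, read 5.12 and 4.92 in ATRA+OMsup cells, 5.85 and 5.75 in ATRA cells, 4.92 and 4.85 in OMsup cells, and 5.05 and 5.56 in untreated cells. The untreated arrays of Foxm1 spread over much of the range, and only the difference between ATRA+OMsup and ATRA passed (-0.78, SE 0.19, adjusted p = 0.0238). Cdca3, which helps to remove the Cdk1 inhibitor Wee1, rose by 0.81 with ATRA and fell by 0.84 with OMsup.

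Among regulators of the anaphase-promoting complex, 3 genes were tested. Cdc20, its mitotic activator, read 5.70 and 6.42 in ATRA+OMsup cells, 7.84 and 8.23 in ATRA cells, 5.61 and 5.94 in OMsup cells, and 6.81 and 6.91 in untreated cells. The groups with OMsup overlapped each other and lay below the rest. Cdc20 rose by 1.17 with ATRA (SE 0.245, adjusted p = 0.0217) and fell by 1.09 with OMsup (adjusted p = 0.0172). In ATRA+OMsup cells it differed from untreated cells by -0.80, with an adjusted p of 0.0524.

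Mad2l1, the checkpoint protein that holds Cdc20 back, read 6.72 and 6.96 in ATRA+OMsup cells, 7.69 and 8.28 in ATRA cells, 6.48 and 6.73 in OMsup cells, and 7.34 and 7.47 in untreated cells. Both groups with OMsup were below the untreated arrays, and the ATRA arrays were above them. Mad2l1 fell by 0.79 with OMsup (adjusted p = 0.0384), while its ATRA difference of 0.58 did not pass (adjusted p = 0.208). Bub1b, which encodes the checkpoint kinase-like protein BubR1, rose by 0.71 with ATRA and fell by 1.38 in ATRA+OMsup cells relative to ATRA. Its OMsup difference of -0.60 had an adjusted p of 0.0527.

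The 4 subunits of the chromosomal passenger complex, which corrects microtubule attachment and acts in cytokinesis, were all tested. Birc5, the survivin subunit, read 5.28 and 5.60 in ATRA+OMsup cells, 7.89 and 8.25 in ATRA cells, 5.77 and 5.85 in OMsup cells, and 7.21 and 7.39 in untreated cells. On the probe used the 4 groups stood apart, with the combination lowest. Birc5 has 3 probes above background, and the order of the groups with OMsup differed between them. ATRA+OMsup minus OMsup was -0.37 on the probe used and 0.18 and 0.13 on the others. Birc5 fell by 1.49 with OMsup (SE 0.19, adjusted p = 0.000516) and by 1.86 with both agents relative to untreated cells (adjusted p = 6.72e-05). Its rise of 0.77 with ATRA was at the limit (adjusted p = 0.0499) and ended in 7 of the 17 alternatives.

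The other subunits moved less. Aurkb, the kinase of the complex, read 6.12 and 6.00 in ATRA+OMsup cells, 7.01 and 6.98 in ATRA cells, 5.83 and 5.91 in OMsup cells, and 6.36 and 6.48 in untreated cells. The groups of Aurkb did not overlap, but its differences from untreated cells did not pass: 0.58 with ATRA (adjusted p = 0.0846) and -0.55 with OMsup (adjusted p = 0.0576). Incenp, the scaffold, and Cdca8, the borealin subunit, differed from untreated cells by 0.45 and 0.55 with ATRA and by -0.28 and -0.25 with OMsup, and neither passed. Relative to ATRA alone, ATRA+OMsup cells had lower levels of all 4, with differences of -2.63 for Birc5, -0.93 for Aurkb, -0.94 for Cdca8 and -0.70 for Incenp.

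**Figure D3:**
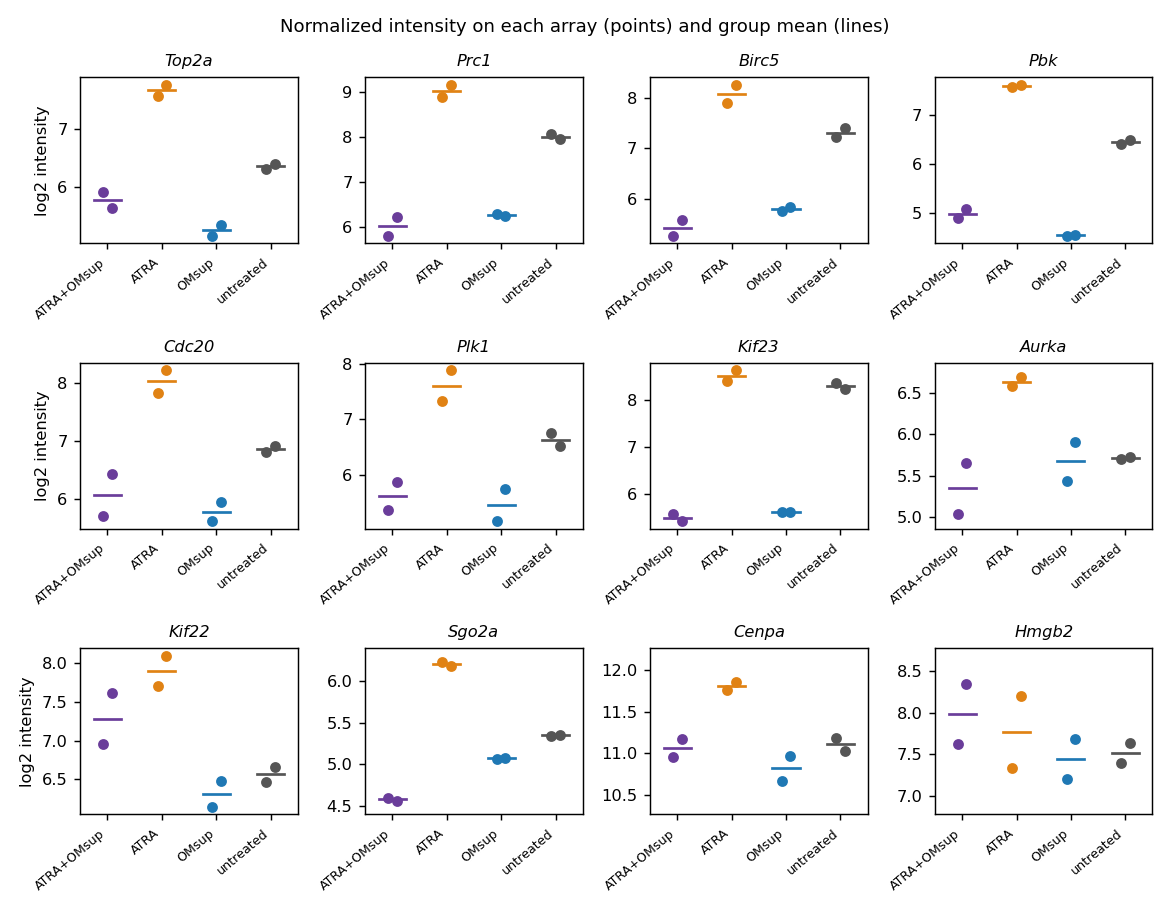
Normalized log2 intensity of 12 members on each array (points) with the group mean (lines), for ATRA+OMsup, ATRA, OMsup and untreated cells, each panel on its own scale. Most panels are highest in ATRA cells and low in both groups with OMsup, whereas Kif23 is about as high in untreated cells as with ATRA, Kif22 is raised in ATRA+OMsup cells, and the groups of Hmgb2 overlap.

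At the centromere and kinetochore, 3 of 5 tested genes rose with ATRA (Cenpa, Ndc80 and Sgo2a), and 4 fell in ATRA+OMsup cells relative to ATRA. Cenpa, the histone H3 variant that marks the centromere, rose by 0.70 with ATRA (SE 0.137, adjusted p = 0.0153). That call ended in 5 of the 17 alternatives, and a second Cenpa probe, above background on all 8 arrays, differed by 0.28. With OMsup Cenpa differed by -0.29 (adjusted p = 0.267). The Ndc80 complex binds microtubule ends. Of its 3 tested subunits, Ndc80 rose by 0.79 with ATRA and fell by 0.72 with OMsup. Spc25 differed by 0.70 with ATRA (adjusted p = 0.0778), was not above background with OMsup, and was there at least 1.21-fold lower than in untreated cells without passing (adjusted p = 0.213). Spc24 differed by 0.05 with ATRA (95% interval -0.30 to 0.41) and by -0.16 with OMsup. A second Spc24 probe, above background on 2 arrays, differed by 0.44 with ATRA.

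Sgo2a, shugoshin 2, which protects centromeric cohesin, read 4.60 and 4.56 in ATRA+OMsup cells, 6.23 and 6.18 in ATRA cells, 5.06 and 5.08 in OMsup cells, and 5.34 and 5.36 in untreated cells. The 2 arrays of each group were close and the groups stood apart, but the ATRA+OMsup arrays were not above background. Sgo2a rose by 0.86 with ATRA (SE 0.148, adjusted p = 0.00769). In ATRA+OMsup cells it was at least 1.69-fold lower than in untreated cells (adjusted p = 0.00453) and at least 3.05-fold lower than in ATRA cells (adjusted p = 5.33e-05).

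Among genes of chromosome structure, 3 of 7 tested rose with ATRA (Top2a, Ncapd2 and Ncaph) and 1 fell with OMsup (Top2a). Top2a, which untangles sister chromatids, read 5.91 and 5.64 in ATRA+OMsup cells, 7.56 and 7.75 in ATRA cells, 5.17 and 5.36 in OMsup cells, and 6.30 and 6.40 in untreated cells. The groups did not overlap. Top2a fell by 1.09 with OMsup (adjusted p = 0.00271), and the combination differed from untreated cells by -0.58 with an adjusted p of 0.0502.

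Of the condensin I genes, the regulatory subunit genes Ncaph and Ncapd2 rose with ATRA, by 1.00 (SE 0.174, adjusted p = 0.00783) and 0.75 (SE 0.16, adjusted p = 0.0235). The core ATPase genes Smc2 and Smc4, which condensin II shares, differed by 0.17 each and did not pass in any comparison. A difference between subunits was not tested. Both lay near background, where little change is detectable: Smc4 read between 4.57 and 4.93 over all arrays and Smc2 between 4.33 and 5.42. A second Ncapd2 probe, above background on 3 arrays, differed by -0.01 with ATRA. Cdca5, the cohesin-stabilizing sororin, differed by 0.47 with ATRA and -0.27 with OMsup, and passed nowhere. Hmgb2, a chromatin protein of the HMG box family, read 7.62 and 8.35 in ATRA+OMsup cells, 7.33 and 8.20 in ATRA cells, 7.20 and 7.68 in OMsup cells, and 7.40 and 7.63 in untreated cells. Its groups overlapped in all comparisons, and it correlated with the mean of the other members at 0.126.

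Of the spindle genes, 4 of 6 tested rose with ATRA (Kif22, Kif2c, Kif4 and Nusap1) and 3 fell with OMsup (Kif11, Kif2c and Nusap1). Nusap1 read 4.69 and 4.98 in ATRA+OMsup cells, 6.93 and 7.45 in ATRA cells, 5.03 and 4.85 in OMsup cells, and 5.77 and 5.99 in untreated cells. The groups with OMsup overlapped each other and lay below untreated cells. Nusap1 fell by 0.94 with OMsup (adjusted p = 0.0161) and by 2.35 in ATRA+OMsup cells relative to ATRA (adjusted p = 4.57e-05). Kif2c, a microtubule depolymerase of the centromere, rose by 0.92 with ATRA and fell by 0.86 with OMsup.

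Kif11 pushes the spindle poles apart, and Kif4 organizes chromosome arms and the midzone. Neither was above background on any array with OMsup. Kif11 was at least 1.87-fold lower with OMsup than in untreated cells (adjusted p = 0.000834), and at least 2.59-fold lower in ATRA+OMsup than in ATRA cells (adjusted p = 8.75e-05). Kif4 rose by 1.02 with ATRA (SE 0.162, adjusted p = 0.00502), although 2 further Kif4 probes, each above background on 2 arrays, differed by -0.01 and 0.38. Stmn1, a microtubule-destabilizing protein that other processes use too, differed by 0.49 with ATRA and -0.45 with OMsup, with overlapping groups.

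Kif22 differed with ATRA in the presence of OMsup as well. It read 6.95 and 7.61 in ATRA+OMsup cells, 7.70 and 8.09 in ATRA cells, 6.15 and 6.48 in OMsup cells, and 6.47 and 6.66 in untreated cells. Both ATRA+OMsup arrays lay above all OMsup and untreated arrays. Kif22 was the member that passed for ATRA+OMsup against OMsup (0.97, SE 0.238, adjusted p = 0.0452), and that call ended in 10 of the 17 alternatives. Its OMsup difference of -0.25 did not pass (95% interval -0.78 to 0.27), and neither did its difference between ATRA+OMsup and ATRA (-0.61, adjusted p = 0.158).

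Genes of the midzone and cytokinesis had the lowest median difference of any role with OMsup (-1.75). All 3 that were tested fell with OMsup, in ATRA+OMsup cells relative to untreated cells, and relative to ATRA. Prc1, which crosslinks midzone microtubules, read 5.81 and 6.23 in ATRA+OMsup cells, 8.89 and 9.16 in ATRA cells, 6.29 and 6.24 in OMsup cells, and 8.07 and 7.95 in untreated cells. The arrays with OMsup were far below the others. Prc1 rose by 1.01 with ATRA (SE 0.184, adjusted p = 0.0102) and fell by 1.75 with OMsup (adjusted p = 0.000146), a 3.36-fold decrease. In ATRA+OMsup cells it was 8.03-fold lower than in ATRA cells (adjusted p = 2.76e-06).

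Anln, the contractile ring scaffold anillin, read 5.14 and 5.65 in ATRA+OMsup cells, 7.53 and 8.06 in ATRA cells, 5.10 and 5.35 in OMsup cells, and 6.72 and 6.81 in untreated cells. The groups with OMsup overlapped each other, and neither reached the untreated arrays. Anln rose by 1.03 with ATRA (SE 0.229, adjusted p = 0.0297) and fell by 1.54 with OMsup (adjusted p = 0.00161).

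Kif23, the motor of the centralspindlin complex, had the largest fall and little difference with ATRA. It read 5.55 and 5.40 in ATRA+OMsup cells, 8.41 and 8.64 in ATRA cells, 5.60 and 5.60 in OMsup cells, and 8.38 and 8.24 in untreated cells. ATRA arrays lay just above untreated arrays, and both groups with OMsup lay together far below. Kif23 was 6.55-fold lower with OMsup (log2 SE 0.164, adjusted p = 3.02e-06) and 7.12-fold lower with both agents (adjusted p = 1.33e-06) than in untreated cells. The ATRA difference was 0.22 (95% interval -0.15 to 0.58). Of 2 further Kif23 probes, 1 fell in parallel (-2.11 with OMsup) and the other differed by -0.02.

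**Figure D4:**
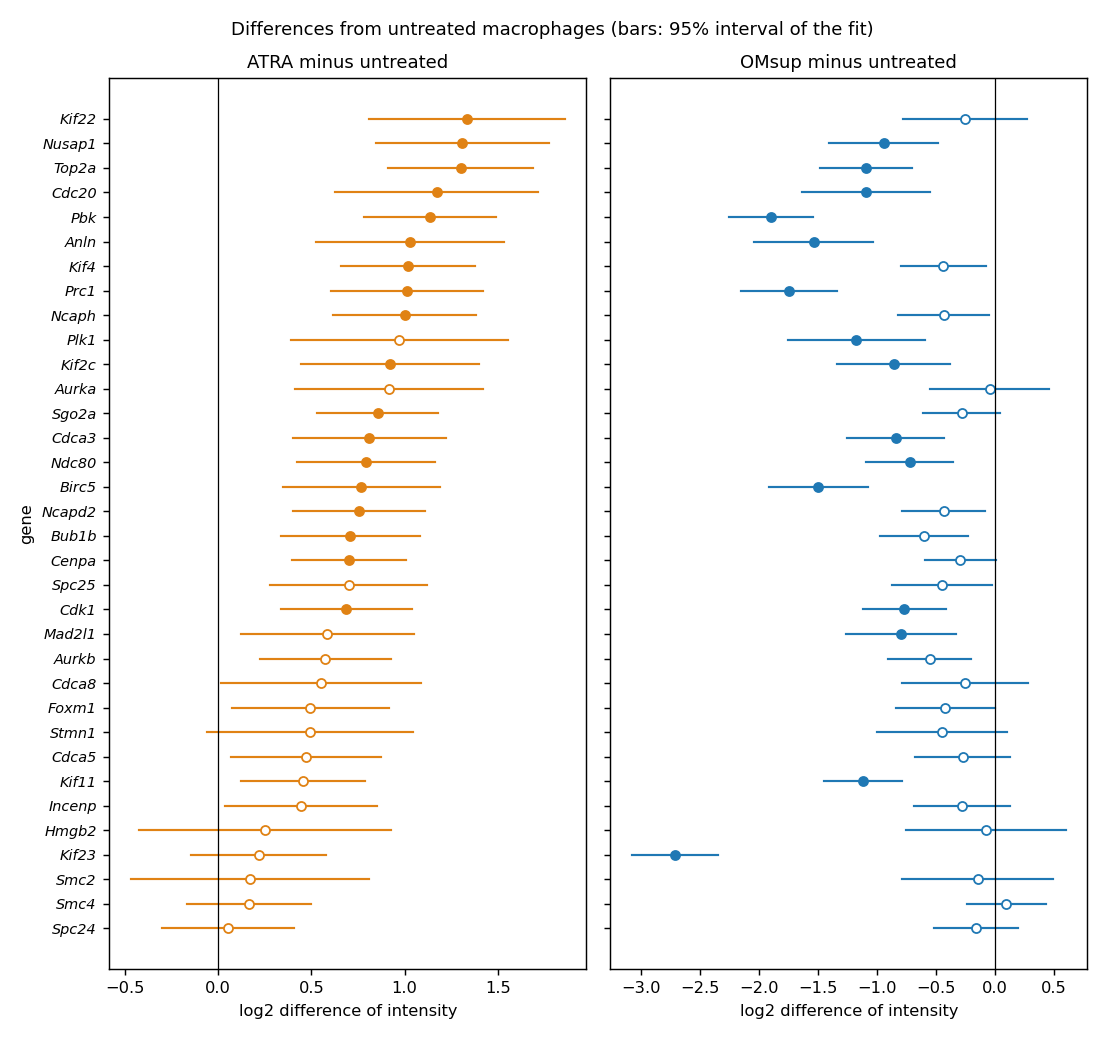
Log2 difference from untreated cells for each of the 34 tested members with ATRA and with OMsup, as points with the 95% interval of the fit, where filled points passed an adjusted p under 0.05. All ATRA differences are above 0, between 0.05 and 1.33, and the OMsup differences run from -2.71 for Kif23 to 0.10 for Smc4.

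The median ATRA difference of the members was smaller in the presence of OMsup. Added to OMsup, ATRA gave a rise in 1 of 34 members (Kif22, 2.94%), where 2.73% of all genes and probes rose, and 4 members were higher and 1 lower at an unadjusted p under 0.05 (6.96% and 6.56% of all tested). The median difference was 0.04, against 0.73 without OMsup, and 19 members were above 0, against 48.5% of all tested. Both ATRA+OMsup arrays lay above both OMsup arrays in 8 members and below them in 4 (18.4% and 19.9% of all tested). Both groups of this comparison were in the serum-free medium, whereas the labels do not state the medium of the untreated cells behind the median of 0.73.

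That contrast was tested as the interaction, the ATRA difference with OMsup minus the ATRA difference without it. The difference without OMsup uses untreated cells, whose medium the labels do not state. ATRA and a change of medium cannot be told apart in it, nor in the interaction. The interaction was below 0 in 33 of 34 members, where 51.7% of all tested were below 0, with a median of -0.65. Kif11 and Kif4 were not above background in either group with OMsup, so their ATRA difference there was held near 0. Of the 25 members above background on every array, 24 were below 0, and their median was -0.69. Only Sgo2a passed (-1.35, SE 0.209, adjusted p = 0.0283), among 0.0782% of all tested that passed in that direction. Since Sgo2a was not above background in ATRA+OMsup cells, the size of its interaction is uncertain, and the call ended without any 1 of the 8 arrays and without a filter on dim probes (adjusted p = 0.0666). At an unadjusted p under 0.05, 18 members were lower (52.9%) and none higher, against 2.78% of all tested that were lower. Among the 18 were Kif4, Spc25, Ndc80, Sgo2a and Pbk, which were not above background on every array with OMsup. The values of Nusap1 (-1.41, adjusted p = 0.139), Prc1 (-1.26, adjusted p = 0.131), Aurka (-1.24, adjusted p = 0.301) and Birc5 (-1.14, adjusted p = 0.217) were also large. They did not pass in this fit, which has no replicate block, and that of Nusap1 was larger than that of Sgo2a. The Birc5 value depends on the probe, since ATRA+OMsup minus OMsup was -0.37 on the probe used and 0.18 and 0.13 on the others. Kif22 had an interaction of -0.36 (95% interval -1.10 to 0.38).

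**Figure D5:**
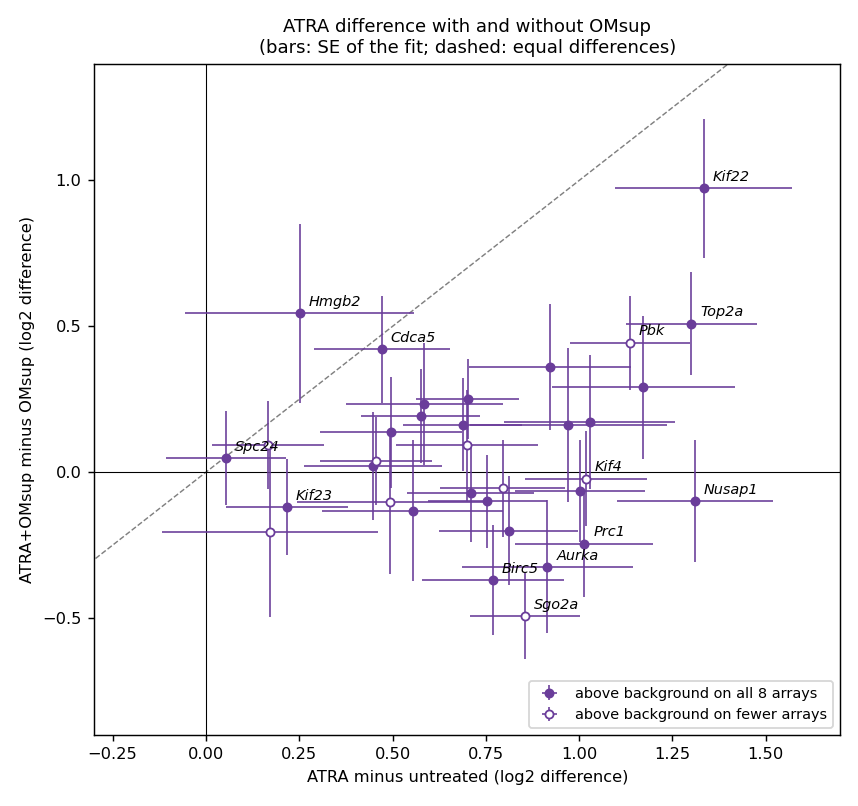
Log2 difference of ATRA+OMsup minus OMsup (vertical) against ATRA minus untreated (horizontal) for each of the 34 tested members, with SE bars, where filled points were above background on all 8 arrays and the dashed line marks equal differences. All members but Hmgb2 lie below the line, and Kif22 is highest on both axes.

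A total of 5 members passed in none of the 6 comparisons: Cdca5, Spc24, Hmgb2, Smc2 and Smc4. In 15 genes 20 further probes were above background, and the sign of the difference was that of the probe used in 17 of 20 for ATRA, 19 of 20 for OMsup and 17 of 20 for ATRA+OMsup against ATRA. The opposite signs came from Kif23, Kif4 and Ncapd2 for ATRA, Smc4 for OMsup, and Kif23, Ncapd2 and Smc4 for the last comparison. For ATRA+OMsup against OMsup the signs agreed less. There, a further probe of Birc5, Bub1b, Cdc20, Cenpa, Foxm1, Kif4, Ncapd2 and Smc4 had the opposite sign to the probe used.

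Genes of the same machinery outside the set moved unevenly. Of 12 tested subunits and activators of the anaphase-promoting complex, none passed with ATRA, with OMsup, or for ATRA+OMsup against ATRA, and at an unadjusted p under 0.05 there were 1, 1 and 0 of them. The activator Fzr1 rose by 0.51 with both agents relative to untreated cells (adjusted p = 0.041), 8.33% of the list against 7.88% of all tested. Of 26 other kinetochore and centromere genes, 5 rose with ATRA (19.2%, against 2.35% of all tested) and 5 fell with OMsup (19.2%, against 4.67%). In ATRA+OMsup cells 13 fell relative to ATRA (50%, against 5.42%). Oip5, which loads Cenpa, rose by 0.90 with ATRA, and the checkpoint gene Spdl1 fell by 0.72 with OMsup and by 1.41 in ATRA+OMsup cells relative to ATRA. Of 13 other spindle and cytokinesis genes, 3 rose with ATRA (Kif18b, Kif15 and Ckap2, by 0.90, 0.89 and 0.87) and 1 fell (Septin9, by 0.69). The shares were 23.1% and 7.69%, against 2.35% and 1.72% of all tested. In ATRA+OMsup cells 8 fell relative to ATRA (61.5%, against 5.42%).

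Among 15 tested cohesin and remaining condensin genes, 1 rose with ATRA (6.67%, against 2.35% of all tested). With OMsup 1 rose and 1 fell (6.67% each, against 4.68% and 4.67%). Relative to ATRA, 1 rose and 2 fell in ATRA+OMsup cells (6.67% and 13.3%, against 4.98% and 5.42%). Sgo1, the shugoshin of mitotic centromeres, was not above background in either group with OMsup. It was at least 1.32-fold lower with OMsup (adjusted p = 0.0185) and at least 1.33-fold lower with both agents (adjusted p = 0.0111) than in untreated cells, and at least 1.88-fold lower in ATRA+OMsup than in ATRA cells (adjusted p = 0.000526). Esco2, which acetylates cohesin, was at least 1.36-fold lower in ATRA+OMsup than in ATRA cells (adjusted p = 0.0352). Ncapg2, a subunit of condensin II, was the gene that rose: by 2.05 with OMsup (adjusted p = 7.56e-05), by 2.22 with both agents relative to untreated cells (adjusted p = 2.57e-05), by 1.00 with ATRA (adjusted p = 0.0156) and by 1.22 in ATRA+OMsup cells relative to ATRA (adjusted p = 0.00221). Of 9 other regulators of the G2 to M step, none passed with either agent alone (2 with ATRA and 1 with OMsup at an unadjusted p under 0.05). Only Cdc25c fell in ATRA+OMsup cells relative to ATRA (11.1%, against 5.42% of all tested). It was not above background in ATRA+OMsup cells and was at least 1.19-fold lower. Among 12 transcription regulators of cycle genes, E2f2 fell by 1.12 with ATRA (adjusted p = 0.0263), 8.33% of the list against 1.72% of all tested. E2f2 also fell by 1.19 in ATRA+OMsup cells relative to OMsup (adjusted p = 0.0179), 8.33% of the list against 1.77%. None passed with OMsup alone (1 at an unadjusted p under 0.05). Rbl1 and Mybl2 were lower in ATRA+OMsup than in ATRA cells (16.7%, against 5.42%). Mybl2 was not above background in ATRA+OMsup cells and was at least 1.63-fold lower.

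DNA replication genes gave calls in the same directions with each agent alone. Of 23 tested, 7 rose with ATRA (30.4%, against 2.35% of all tested, median 0.54), 8 fell with OMsup (34.8%, against 4.67%, median -0.36), and 15 fell in ATRA+OMsup cells relative to ATRA (65.2%, against 5.42%, median -0.74). With both agents relative to untreated cells, 6 fell and 1 rose (26.1% and 4.35%, against 7.26% and 7.88% of all tested). The gene that rose was the replication factor C gene Rfc4 (0.77, adjusted p = 0.0175). The thymidine kinase gene Tk1 rose by 1.17 with ATRA (adjusted p = 0.0064) and fell by 1.72 with OMsup (adjusted p = 0.000244). Added to OMsup, ATRA raised the DNA ligase gene Lig1 alone (0.96, adjusted p = 0.00632), 4.35% of the list against 2.73% of all tested. No replication gene passed in the interaction, where 7 were lower at an unadjusted p under 0.05. Whether the 2 sets differ was not tested.

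Marker lists of other cell types showed what else moved between the groups. All 7 macrophage markers with a probe were tested, and the sum of their linear intensities was 29620 and 31700 on the ATRA+OMsup arrays, 30420 and 31540 with ATRA, 28070 and 30800 with OMsup, and 30430 and 32160 untreated. Lyz2, the brightest of the 7, weighed most in these sums and read 14.14 to 14.30 on the log2 scale over the 8 arrays. Other macrophage markers differed between groups. Mertk rose by 1.13 with ATRA, and Cd14 fell by 0.93 with OMsup. With both agents Itgam, Mertk and Fcgr1 rose by 1.49, 0.97 and 0.78 and Cd14 fell by 0.59 relative to untreated cells. Of 8 myeloid progenitor markers 6 were tested, and their sum was 1529 to 1570 with ATRA+OMsup, 154.8 to 200.8 with ATRA, 503.3 to 584.2 with OMsup and 239.5 to 299.4 untreated. Prtn3, a protease of immature granulocytes and monocytes, made most of that rise (4.96 with both agents relative to untreated cells), and Prtn3, Ctsg and Mpo rose with OMsup, by 1.54, 1.19 and 0.89. The progenitor receptor gene Kit was not above background with OMsup and was at least 1.38-fold lower than in untreated cells (adjusted p = 0.0093). In the granulocyte list 4 of 7 markers were tested, with Cxcr2 and Retnlg not above background on any array, and its sum was 912.2 to 1212 with ATRA+OMsup, 625.9 to 721.8 with ATRA, 1267 to 1686 with OMsup and 1054 to 1379 untreated. S100a8 fell by 0.86 with ATRA, and differed by 0.38 with OMsup without passing. Camp was not above background with OMsup and was at least 1.47-fold lower than in untreated cells (adjusted p = 0.00835). With both agents Camp fell by 0.63 relative to untreated cells, and Ngp fell by 0.69 with OMsup. The erythroid list had 2 of 5 markers tested and Hba-a1 not above background on any array, and its sum was 1788 to 1862 with ATRA+OMsup, 1327 to 1358 with ATRA, 1943 to 2079 with OMsup and 743.8 to 810.7 untreated. Tfrc, the transferrin receptor gene that dividing cells and macrophages also express, was the marker of that list that rose: by 1.22 with both agents, 0.78 with ATRA and 1.36 with OMsup relative to untreated cells. No tested marker of the B cell, mast cell, dendritic cell, fibroblast and adipocyte lists passed in any comparison, and the T and NK cell and mesothelial lists had no tested marker. The part of these cells in the mitotic gene results was not tested.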

How the data were processed

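The deposited table of non-normalized values held an intensity and a detection p-value for each of 45281 probes on each array, per the file headers. The authors' intensity values are linear and without background subtraction, as the values show, and no source used here names their software. A deposited normalized matrix of linear intensity served as an alternative. Per the labels, biotin-labelled cRNA was hybridized in 1 colour. In limma 3.58.1 (R 4.3.3), neqc corrected background, taking negative controls from the detection p-values, and quantile-normalized the arrays on the log2 scale with an offset of 16. The filter required detection (p under 0.05) on 2 or more arrays, which 18503 probes met, and the brightest such probe stood for a symbol. Of all probes, 34885 had 1 symbol, 18 several and 10378 none. The 2725 unnamed probes that passed were tested singly.

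Group means were fitted to all 8 arrays with lmFit and eBayes (trend on), with Benjamini-Hochberg adjustment over 12793 genes and probes in each of 6 comparisons. Residual degrees of freedom were 4, and prior ones 6.62. The number of arrays limits the precision: the median SE was 0.171, and 0.242 for the interaction. Where a group was not above background on any of its arrays, a bound was computed against the lowest signal above background. The scripts were tested on simulated data.

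Members, gene lists, roles and tests were chosen with earlier results of these data known. Array values are given for key members, the 5 largest called differences of each comparison, and members called in the interaction or for ATRA+OMsup against OMsup. Other lists are named by up to 4 of the largest called genes. Alternatives were other background, scaling, filter, probe, variance and block settings, the compared groups alone, and each array left out.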

Additional observations from a re-analysis of the deposited data

Results flagged for a closer look

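The interaction of Sgo2a was singled out because the ATRA difference with OMsup and the ATRA difference without it differed in limma's test of that difference (-1.35, SE 0.209, adjusted p = 0.0283). ATRA+OMsup minus OMsup was -0.49 (SE 0.148) and ATRA minus untreated was 0.86 (SE 0.148). The ATRA+OMsup arrays were not above background.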

How the results depend on the processing

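Across the alternatives no member's call reversed. Counts of members called stayed within 1.5 times the main count under every alternative that kept all arrays for ATRA against untreated (13 to 24), OMsup against untreated (12 to 17), ATRA+OMsup against untreated (11 to 19) and ATRA+OMsup against ATRA (27 to 29). For ATRA+OMsup against OMsup the 1 call, Kif22, became 0 without background correction, on the deposited normalized matrix and with only the groups compared. For the interaction the 1 call became 0 with no filter on dim probes. With any 1 array left out the counts ran from 2 to 19 for ATRA, 7 to 16 for OMsup, 10 to 13 for ATRA+OMsup against untreated, 0 to 1 for ATRA+OMsup against OMsup, 22 to 28 for ATRA+OMsup against ATRA, and 0 to 0 for the interaction. Median differences of the members were smaller without background correction, at 0.44 for ATRA, -0.24 for OMsup, -0.23 for ATRA+OMsup against untreated, -0.61 for ATRA+OMsup against ATRA and -0.36 for the interaction, and the deposited matrix gave 0.44, -0.25, -0.24, -0.65 and -0.37. Scaling the arrays to a common median moved the median for ATRA+OMsup against ATRA to -1.54. It moved the median of all genes and probes in that comparison to -0.13, and the direction of the members held. The interaction median was -0.73 with that scaling.

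The labels number the replicates without saying that a number marks a shared culture, and deviations of same-numbered arrays correlated at -0.01 to 0.21 with those of untreated cells and at 0.43 to 0.53 among the treated groups, so the numbers were not taken as pairs. With the replicate block the counts were 24, 17, 19, 1, 29 and 4 for ATRA, OMsup, ATRA+OMsup against untreated, ATRA+OMsup against OMsup, ATRA+OMsup against ATRA, and the interaction (Birc5, Prc1, Nusap1 and Sgo2a). In that fit Kif22 also passed as higher in ATRA+OMsup than in untreated cells (adjusted p = 0.0058).

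With 2 arrays a group, the log2 differences between groups carry SEs of 0.137 to 0.307 and the interactions SEs of 0.194 to 0.434. Calls near the limit depend on single arrays. Members near background, such as Smc2 and Smc4, can hide changes, and probes that disagree (Kif23, Kif4, Ncapd2) leave their genes uncertain. The 14 untested members add nothing in either direction.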
